A study of Mus musculus with 9 samples.

Results

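Open chromatin around the 3 genes of the Myc family, Myc, Mycn and Mycl, was described in 3 mouse osteosarcoma lines by ATAC-seq, an assay that uses Tn5 transposase to cut DNA where it is accessible. The members were all listed peaks within 500 kb of the gene spans (RefSeq, GRCm38.p6). The rule used position alone and no measured value. Peaks that overlapped by 1 bp or more in any of the 9 lists were merged into regions, and a library with a peak in a region was said to call it. The 3 windows held 217 of 124230 merged regions, 88 at Myc, 39 at Mycn and 90 at Mycl, and 1094 of 648618 listed peaks.

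The comparison was between 3 genotypes, and each was 1 cell line derived from a primary osteosarcoma, a bone tumour. The R172H line (p53R172H/-) had 1 p53 allele, with the R172H substitution, and lacked the other, the R245W line (p53R245W/-) carried R245W likewise, and the null line (p53-/-) lacked p53. All lines grew in the same serum-containing medium, and the labels give no treatment, strain or age. A difference between genotypes is therefore equally a difference between lines, and genotype and line cannot be told apart. Each line had 3 libraries, and the labels do not say that these came from separate cultures. The p-values then measure only the spread between libraries, which may be technical. Lists held from 65199 to 79424 peaks, and the null lists were the shortest. Read depth is unknown, and the most frequent background pile-up, a relative measure of it, was 4.77 to 6.39 per library. Of 10 osteoblast lineage markers, 7 had a peak at a gene end in every library, and Ibsp, Bglap and Dmp1 in none. Ends open throughout were found for 1 of 5 leukocyte markers (Cd68), 1 of 4 endothelial (Kdr) and 1 of 4 epithelial markers (Krt8), while Ptprc, Pecam1, Cdh5, Tek, Cdh1 and Krt18 had none.

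Myc proteins are transcription factors of the basic helix-loop-helix leucine zipper class that pair with Max, bind E-box sequences and drive cell growth and ribosome production. Myc lies between a gene desert and the long noncoding RNA gene Pvt1, and enhancers on both sides are known to act on it in a manner specific to the cell type. Gain of the human region is common in osteosarcoma. Mycn is best known from neuroblastoma, where it can be amplified together with its neighbours DDX1 and NBAS, and Mycl from small cell lung cancer.

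The RefSeq promoter table held 2 of the 3 members, and both promoters are shown because a peak overlapped them in all 9 libraries. Each runs 5′ to 3′ along the gene, from 250 bases before the start to 50 bases after it, on GRCm38.p6. The Mycn promoter is chr12:12941787-12942086 on the minus strand and the Mycl promoter chr4:122995681-122995980 on the plus strand. The start is that of the promoter entry. The Mycl window lies wholly inside the gene span, which begins at 122995588, so for Mycl this start is not the end of the span. Capitals mark matches, on either strand, to the motifs searched.
Mycn: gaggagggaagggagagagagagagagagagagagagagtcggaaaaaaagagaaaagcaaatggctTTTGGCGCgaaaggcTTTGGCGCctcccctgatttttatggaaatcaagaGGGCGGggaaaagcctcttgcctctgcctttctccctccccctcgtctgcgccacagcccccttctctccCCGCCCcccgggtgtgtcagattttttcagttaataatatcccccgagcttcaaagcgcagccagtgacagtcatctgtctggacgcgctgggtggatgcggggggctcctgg
Mycl: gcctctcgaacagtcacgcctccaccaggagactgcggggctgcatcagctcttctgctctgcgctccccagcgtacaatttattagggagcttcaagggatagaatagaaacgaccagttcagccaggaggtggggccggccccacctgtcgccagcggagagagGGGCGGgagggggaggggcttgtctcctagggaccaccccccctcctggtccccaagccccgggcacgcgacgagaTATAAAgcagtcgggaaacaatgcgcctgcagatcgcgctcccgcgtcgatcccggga
The motifs searched were the E-box CACGTG, the E2F sequences TTTGGCGC and TTTCCCGC, the Runx sequence TGTGGT, the boxes TATAAA and CCAAT, and the GC box GGGCGG. The Mycn promoter held TTTGGCGC on the printed strand beginning 183 and 168 bases before the start. This sequence occurs in 0.514% of the 32851 promoters in the table. It also held 2 GC boxes, beginning 133 bases before the start on the printed strand and 63 bases before it on the other. A GC box is found in 35.7% of promoters. The Mycl promoter held 1 GC box, beginning 84 bases before the start, and TATAAA beginning 8 bases before it, a sequence found in 13.6% of promoters. No match to CACGTG (7.15% of promoters), TTTCCCGC (1.07%), TGTGGT (16.8%) or CCAAT (37.4%) lay in either window, and none of the printed matches overlapped. The GC content was 56.7% for Mycn and 64.0% for Mycl, against a median of 52.7% over all promoters. The Mycl window was covered by peaks over all 300 bases in every library. The Mycn window was covered over 300 bases in each R172H library, over 219, 300 and 213 bases in the R245W libraries, and over 109, 236 and 218 bases in the null libraries.

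Around Myc (chromosome 15, 61985341 to 61990361), the 3 lines had similar numbers of peaks at different places. R172H peaks were more numerous on the desert side and R245W and null peaks more numerous within Pvt1. The window held 53, 54 and 57 peaks in the R172H libraries, 53, 52 and 54 in the R245W libraries, and 49, 52 and 53 in the null libraries. On the desert side, at lower coordinates than Myc, there were 15, 15 and 14 peaks in R172H, 7, 6 and 6 in R245W, and 7, 9 and 8 in null libraries. The R172H libraries lay above all others here, and likewise between Myc and Pvt1, with 6, 6 and 7 peaks against 3 in every other library. Within the Pvt1 span (62037986 to 62260215) the order was the opposite, with 16, 17 and 18 peaks in R172H, 24, 24 and 25 in R245W, and 24, 23 and 25 in null libraries. Beyond Pvt1 the libraries held 13, 13 and 15 peaks in R172H, 16, 16 and 17 in R245W, and 12, 14 and 14 in null. No test was run on these divisions, which were compared after their values had been seen.

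**Figure D1:**
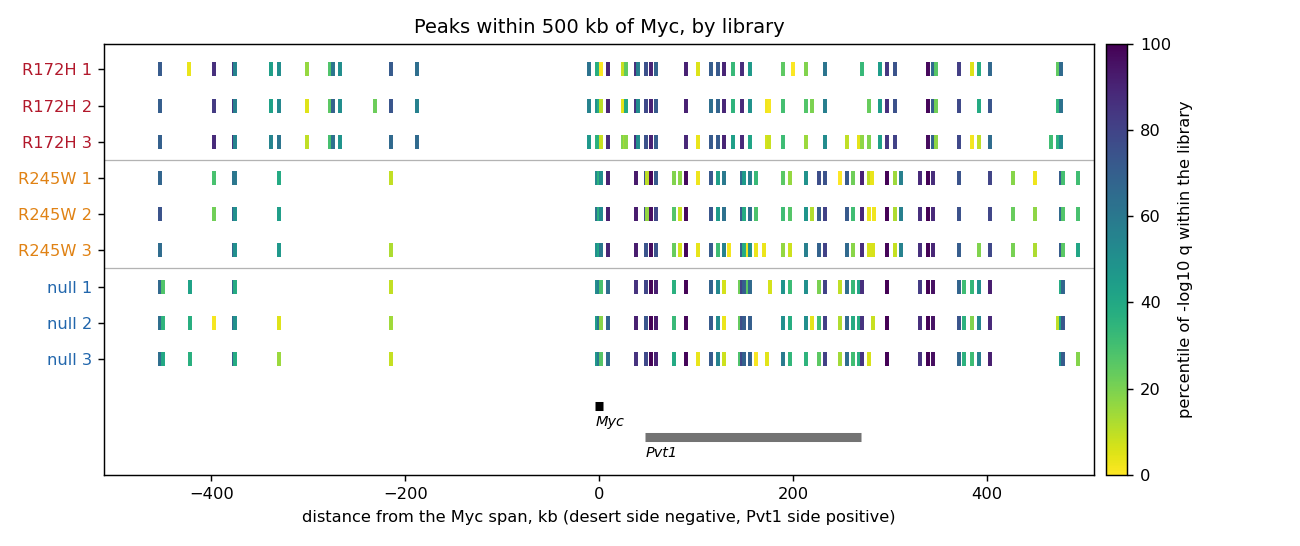
Each tick is a merged region with a peak in that library, placed by its distance in kb from the Myc span and coloured by the percentile of its -log10 q within the library. Rows are the 9 libraries, and bars below mark Myc (widened to be visible) and Pvt1. The R172H libraries have 14 to 15 peaks on the desert side, against 6 to 7 in R245W and 7 to 9 in null libraries.

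As a share of each list, the Myc window held 7.45 ± 0.317 peaks per 10000 library peaks in R172H, 6.87 ± 0.312 in R245W and 7.82 ± 0.277 in null (SD, n = 3 each). The spread of the line means passed the threshold of 0.05 (exact permutation test over 280 partitions of the libraries, one-sided, adjusted p over the 9 tests of this kind = 0.0281). Every R245W library was below every R172H and null library, while R172H and null overlapped. The call was lost without R245W replicate 1, R245W replicate 2, null replicate 2 or null replicate 3, with exact permutation adjusted p of 0.0536, 0.0679, 0.0714 and 0.0679. Without R172H replicate 3 the null line, in place of R245W, stood farthest from the others (exact permutation adjusted p = 0.0230).

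The strongest feature of the Myc gene itself was a region over its lower-coordinate end, 61984316 to 61986102, called in all 9 libraries. Strength is given as the percentile of the authors' -log10 q value among the peaks of the same library, so 100 is the strongest peak of a list. It reached percentiles of 95.0, 94.2 and 93.7 in R172H, 89.2, 91.3 and 90.7 in R245W, and 91.1, 89.8 and 90.1 in null libraries. All R172H values exceeded all others, and R245W and null values interleaved. The means were 94.3 ± 0.623, 90.4 ± 1.099 and 90.3 ± 0.690 in R172H, R245W and null (SD, n = 3 each), and the lines differed (exact permutation test, one-sided, adjusted p = 0.0321). Between R245W and null the difference was 0.0938 percentile points (exact two-sided permutation p = 0.9), and with lists of equal length the means were 93.6, 88.7 and 90.3 in R172H, R245W and null, with R245W below null. Between pairs of lines the smallest possible exact two-sided p is 0.1. Of the protein-coding genes with an open end, 67.5% to 73.2% had a weaker end than Myc in R172H libraries, 52.6% to 58.5% in R245W and 58.5% to 62.9% in null libraries. Inside the gene, the region 61986416 to 61987271 stood at 74.1 to 75.3 in R172H, 38.5 to 47.0 in R245W and 55.2 to 61.5 in null libraries, with no overlap between lines.

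Strong shared regions of the Myc window lay on the Pvt1 side. The region with the highest median percentile of those called in all 9 libraries lay 338.5 kb from Myc, beyond Pvt1 (62328187 to 62329522). Its percentiles were 97.8, 98.5 and 97.0 in R172H, 99.5, 99.8 and 99.4 in R245W, and 99.7, 99.6 and 99.7 in null libraries. The next, 296.9 kb from Myc (62286523 to 62287917), had percentiles of 84.3, 86.4 and 84.5 in R172H, 99.3, 99.4 and 98.8 in R245W, and 99.8, 99.8 and 99.4 in null libraries. Another within Pvt1, 89.1 kb from Myc (62078761 to 62080069), stood at 90.7, 91.0 and 88.9 in R172H, 97.1, 98.1 and 98.6 in R245W, and 98.9, 98.3 and 98.5 in null libraries. In each of these regions every R172H library was below every R245W and null library.

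In the opposite direction, 13 of the 88 Myc regions (14.8%) had a peak in every R172H library and in none of the other 6, against 9.83% of all merged regions. Of these, 7 lay on the desert side, 3 between Myc and Pvt1, 1 within Pvt1 and 2 beyond it. The region 274.5 kb from Myc within the noncoding gene D030024E09Rik (61710253 to 61711504) had percentiles of 61.1, 69.2 and 63.4 in the R172H libraries. Another, 187.4 kb from Myc (61797552 to 61798409), stood at 64.4, 56.5 and 65.7, and one 39.7 kb from Myc toward Pvt1 (62029663 to 62030502), at 57.0, 51.2 and 51.2. By their lowest percentile these 3 regions were the strongest of the 13, and they were of middling rank. The weakest by the same measure, 24.6 kb from Myc (62014652 to 62015269), stood at 8.245, 3.99 and 19.3. None of the 13 lay at a gene end. A region beyond Pvt1, 304.9 kb from Myc (62294777 to 62295804), was called in both mutants, at 74.4, 75.1 and 80.3 in R172H and 14.8, 12.2 and 8.87 in R245W, and in no null library.

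Peaks present in R245W and null but missing in all R172H libraries numbered 7 of 88 (7.95%, against 6.21% of all merged regions), 5 within Pvt1 and 2 beyond. The strongest lay 330.7 kb from Myc (62320340 to 62321720), at percentiles of 88.3, 86.6 and 86.6 in R245W and 82.7, 87.1 and 85.3 in null libraries. Within Pvt1, the region at 148.9 kb (62138797 to 62139714) was weaker in R245W, at 45.6, 38.7 and 37.6, than in null, at 70.1, 70.9 and 69.0. The region at 226.3 kb beside the pseudogene Macroh2a3 (62216083 to 62217257) was stronger in R245W, at 76.4, 70.9 and 68.8, than in null, at 20.04, 31.5 and 25.02. R245W alone had 4 regions (4.55%, against 5.79% of all merged regions), led by one 310.9 kb from Myc (62300851 to 62301622) at 56.8, 57.3 and 56.1. The null line alone also had 4 (4.55%, against 2.74%), led by one 421.8 kb into the desert (61563285 to 61563787) at 42.5, 37.3 and 37.1.

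Counted pair by pair, with called in 3 of 3 libraries of one line and 0 of 3 of the other as the rule, the Myc window was close to the genome for most contrasts. R172H over null gave 14 regions in R172H alone (15.9%, against 14.5% of all merged regions) and 12 in null alone (13.6%, against 10.3%). R245W over null gave 5 in R245W alone (5.68%, against 10.0%) and 6 in null alone (6.82%, against 4.03%). R172H over R245W gave 14 in R172H alone (15.9%, against 11.5%) and 13 in R245W alone (14.8%, against 13.8%). Without null replicate 3 the count in R245W alone over null became 8, and with all lists shortened to equal length it was 2.

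On the desert side the height of shared peaks followed the peak numbers. Within Pvt1 both mutants were lower than null in most shared regions, although only R172H had fewer peaks than null there. MACS2's fold and p at a summit allow the whole number of overlapping reads or fragments, the pile-up, to be solved, and it was scaled by the library's median over regions called everywhere. On the desert side all 4 shared regions were higher in R172H than in null, by 0.09 to 1.00 on the log2 scale, and all 4 were higher in R172H than in R245W. In R245W, 3 of the 4 were lower than in null. Within Pvt1, 9 of 12 shared regions were lower in R172H than in null, with a median difference of -0.66 log2, and 10 of 12 were lower in R245W than in null, with a median of -0.57. For R172H over R245W, 5 of these 12 were higher and 7 lower, with a median of -0.15. Beyond Pvt1, 4 of 6 were lower in R172H and 5 of 6 in R245W than in null. The widest difference from null was in a Pvt1 region singled out after its values were seen: at 128.9 kb from Myc (62118792 to 62119809) the pile-ups were 292, 305 and 297 in R172H, 102, 119 and 95 in R245W, and 23, 27 and 26 in null libraries. That is a scaled difference of 3.83 log2 for R172H minus null and 1.93 for R245W minus null. Closer in, a region 8.8 kb from Myc (61998511 to 61999870) had 269, 299 and 253 in R172H, 265, 298 and 266 in R245W, and 97, 129 and 107 in null libraries.

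**Figure D2:**
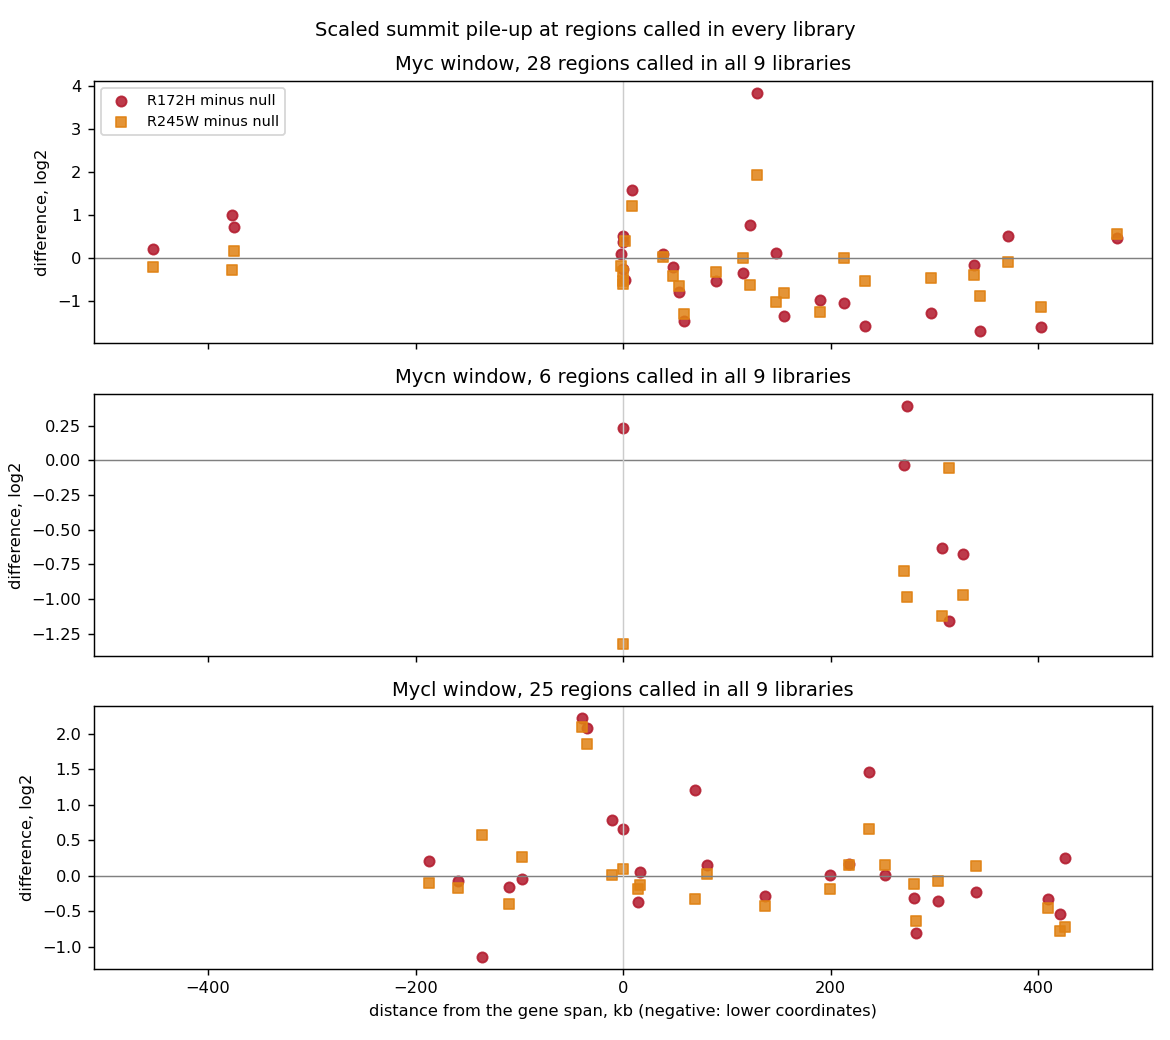
Each point is a region called in all 9 libraries, placed by its distance in kb from the gene span. The vertical axis is the difference in mean scaled summit pile-up, log2, for R172H minus null (circles) and R245W minus null (squares). In the Myc window all 4 desert-side circles lie above 0 and most points within and beyond Pvt1 lie below it. Above 0 are 3 of 12 circles and 2 of 12 squares within Pvt1, the highest at 3.83 and 1.93 log2, and 2 of 6 circles and 1 of 6 squares beyond it.

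Over all 28 shared Myc regions the median scaled pile-up was 0.34 ± 0.07 log2 in R172H, 0.23 ± 0.02 in R245W and 0.66 ± 0.05 in null (SD, n = 3 each; exact permutation test, one-sided, adjusted p = 0.00643). Region by region R172H had no common direction against null: 13 of 28 were higher and 15 lower, with a median difference of -0.19. In R245W, 7 were higher and 21 lower than in null, with a median difference of -0.35. The medians over all shared regions of chromosome 15 were 0.09, -0.06 and -0.03 in R172H, R245W and null. Scaled by the chromosome's own median, the Myc window stood at 0.24, 0.29 and 0.68 in R172H, R245W and null, with null still apart (exact permutation adjusted p = 0.0281). The copy number of the locus itself was not tested. This window median depended on the window: within 250 kb it was 1.01, 0.26 and 0.71 in R172H, R245W and null, so that R172H was the highest, and within 1000 kb it was 0.02, -0.06 and 0.08, with an exact permutation adjusted p of 0.0571. Without R172H replicate 3 the medians were 0.52, 0.27 and 0.74 and R245W stood farthest from the others (exact permutation adjusted p = 0.0107).

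Around Mycn (chromosome 12, 12936093 to 12941836, minus strand), the R172H line had by far the most peaks. The window held 29, 27 and 28 peaks in the R172H libraries, 13, 12 and 13 in the R245W libraries, and 17, 13 and 17 in the null libraries. Per 10000 library peaks this was 3.82 ± 0.176 in R172H, 1.64 ± 0.115 in R245W and 2.39 ± 0.361 in null (SD, n = 3 each). No 2 lines overlapped, and the lines differed (exact permutation test, one-sided, adjusted p = 0.00643). Within 1000 kb the means were 5.23, 3.24 and 4.37 in R172H, R245W and null, and R245W, not R172H, then stood farthest from the others. The highest percentile of any Mycn window peak was 87.2, in a null library.

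**Figure D3:**
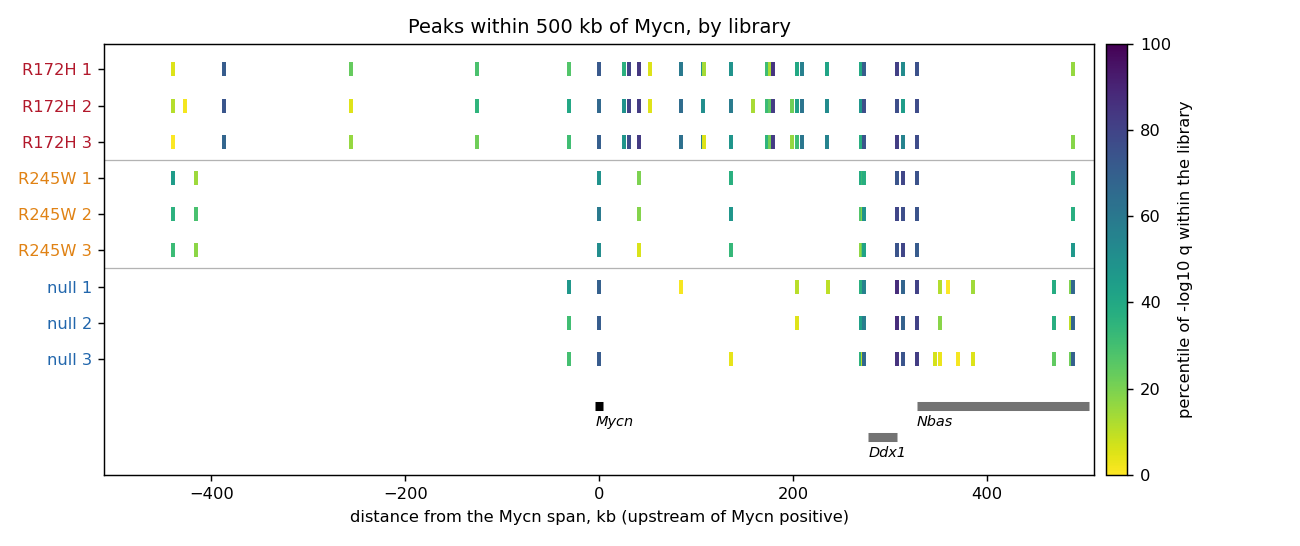
Each tick is a merged region with a peak in that library, placed by its distance in kb from the Mycn span and coloured by the percentile of its -log10 q within the library. Positive distances are upstream of Mycn, and bars mark Mycn (widened), Ddx1 and the part of Nbas in the window. The R172H libraries have 17 to 18 peaks between Mycn and Ddx1, against 5 to 6 in R245W and 4 to 6 in null libraries.

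Most peaks of every line lay upstream of Mycn, with 20 to 22 per library in R172H, 9 to 10 in R245W and 11 to 15 in null. In the 277.5 kb between Mycn and Ddx1, an interval chosen after the values were seen, the libraries had 18, 17 and 18 peaks in R172H, 6, 5 and 6 in R245W, and 6, 4 and 5 in null. R172H alone had 11 regions (28.2% of the window's 39, against 9.83% of all merged regions). Of these, 8 were among the 31 regions of the upstream side and 3 among the 7 of the downstream side. The strongest was 178.8 kb upstream of Mycn (13119759 to 13121414), at percentiles of 85.01, 82.6 and 82.6 in R172H libraries and without a peak in the other 6. Next came a region 31.2 kb upstream (12972409 to 12973646), at 80.0, 80.6 and 76.6 and again in no other library. A region 41.2 kb upstream (12982670 to 12983459) stood at 84.1, 82.6 and 83.0 in R172H and only at 19.9, 18.7 and 5.49 in R245W, and was not called in null. Farther off, on the downstream side, a region 386.5 kb from Mycn (12549275 to 12550006) had percentiles of 71.3, 73.6 and 67.8 in R172H alone.

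The other lines had fewer Mycn regions of their own than R172H. R245W alone had 1 region (2.56%, against 5.79% of all merged regions), 415.5 kb downstream of Mycn (12520349 to 12520842), at 14.8, 29.0 and 17.3. Null alone had 3 (7.69%, against 2.74%), all weak and all within Nbas, of which the strongest, 468.5 kb upstream (13410038 to 13410630), stood at 38.4, 37.3 and 24.4. A region 31.4 kb downstream (12904249 to 12905126) was called in R172H, at 27.1, 40.3 and 30.7, and in null, at 46.9, 30.8 and 30.0, and not in R245W. It was the only peak of the null libraries on the downstream side. The remaining 468.2 kb to the edge of the window had no null peak and 2 to 5 peaks in each of the other 6 libraries.

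By pairs, R172H over null gave 13 regions in R172H alone (33.3%, against 14.5% over the genome) and 3 in null alone (7.69%, against 10.3%). R172H over R245W gave 14 in R172H alone (35.9%, against 11.5%) and 2 in R245W alone (5.13%, against 13.8%). R245W over null gave 3 in R245W alone (7.69%, against 10.0%) and 4 in null alone (10.3%, against 4.03%). Without null replicate 3 the R245W-alone count over null became 5, and with equal list lengths 1. Of the 13 R172H regions without a null peak, 5 were above the 50th percentile in every R172H library and 1 lay at a gene end.

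The Mycn gene end itself was open in all 9 libraries, in the merged region 12939748 to 12943028 that covers the printed promoter. Values are of the strongest peak of this region in each library, which was not at the same place in all. It overlapped the gene span in R172H replicates 2 and 3 and R245W replicate 2. In R245W replicates 1 and 3 and all null libraries it lay upstream of the span. There the peak over the span stood only at 10.6 and 16.5 in R245W and at 10.04, 9.35 and 7.77 in null. R172H replicate 1 had 2 peaks over the span, with a median percentile of 40.4, which does not fix the place of its strongest peak. Percentiles of the strongest peak were 72.5, 66.5 and 70.7 in R172H, 49.3, 59.5 and 51.5 in R245W, and 69.8, 71.5 and 71.7 in null libraries. R245W was below the others in every library, and R172H and null overlapped. The means were 69.9 ± 3.06, 53.4 ± 5.36 and 71.0 ± 1.06 in R172H, R245W and null (SD, n = 3 each; exact permutation test, one-sided, adjusted p = 0.0281). The summit pile-ups were 146, 137 and 138 in R172H, 53, 77 and 59 in R245W, and 131, 153 and 148 in null libraries. Scaled, R245W minus null was -1.33 log2 and R172H minus null 0.24. Relative to other genes the Mycn end was weak: 18.0% to 21.9% of open protein-coding gene ends had a lower percentile in R172H, 12.02% to 16.1% in R245W and 23.6% to 25.3% in null libraries.

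All 6 Mycn regions called in every library were lower in R245W than in null, with differences of -1.33 to -0.06 log2 and a median of -0.98. They include the ends of Ddx1, an RNA helicase gene, and Nbas, which encodes a protein of Golgi-to-ER transport. At the Ddx1 end (13248634 to 13249813) the pile-ups were 136, 119 and 141 in R172H, 109, 142 and 119 in R245W, and 239, 265 and 236 in null libraries. At the Nbas end (13268551 to 13270889) they were 116, 137 and 126 in R172H, 134, 144 and 126 in R245W, and 225, 253 and 252 in null libraries. The window's median scaled pile-up was 0.16 ± 0.06 log2 in R172H, -0.72 ± 0.09 in R245W and 0.04 ± 0.09 in null (SD, n = 3 each; exact permutation test, one-sided, adjusted p = 0.0107). The same median over chromosome 12 was -0.20, -0.29 and 0.03 in R172H, R245W and null, so the chromosome was also lower in R245W than in null. Between R172H and null the medians of levels and of differences disagreed in sign. The level was 0.12 log2 higher in R172H, while 4 of 6 regions were lower in it, with a median difference of -0.33. Scaled by the chromosome's own median, the window stood at 0.36, -0.43 and 0.02 in R172H, R245W and null. The copy number of the locus itself was not tested.

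Around Mycl (chromosome 4, 122995588 to 123002490, plus strand), a gene-dense window with 17 protein-coding genes, the null libraries had the largest share of their peaks. Counts were 44, 45 and 46 in R172H, 54, 53 and 50 in R245W, and 50, 51 and 55 in null libraries. Per 10000 library peaks this was 6.13 ± 0.152 in R172H, 6.78 ± 0.214 in R245W and 7.92 ± 0.383 in null (SD, n = 3 each; exact permutation test, one-sided, adjusted p = 0.00643), and no 2 lines overlapped. With lists of equal length the means were 5.98, 6.03 and 7.515 in R172H, R245W and null. At a -log10 q of 5 or more they were 6.17, 6.21 and 7.095. The R172H and R245W means then lay close together, and null stood farthest from the others (exact permutation adjusted p = 0.0357 each). The median percentile of the window's peaks was 52.4 to 59.8 per library in R172H, 43.3 to 46.4 in R245W and 30.4 to 39.3 in null, so the null peaks here were mostly weak. No list held a peak in the 1540 kb below 122781860, so the window's first 286.3 kb were empty in all libraries.

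**Figure D4:**
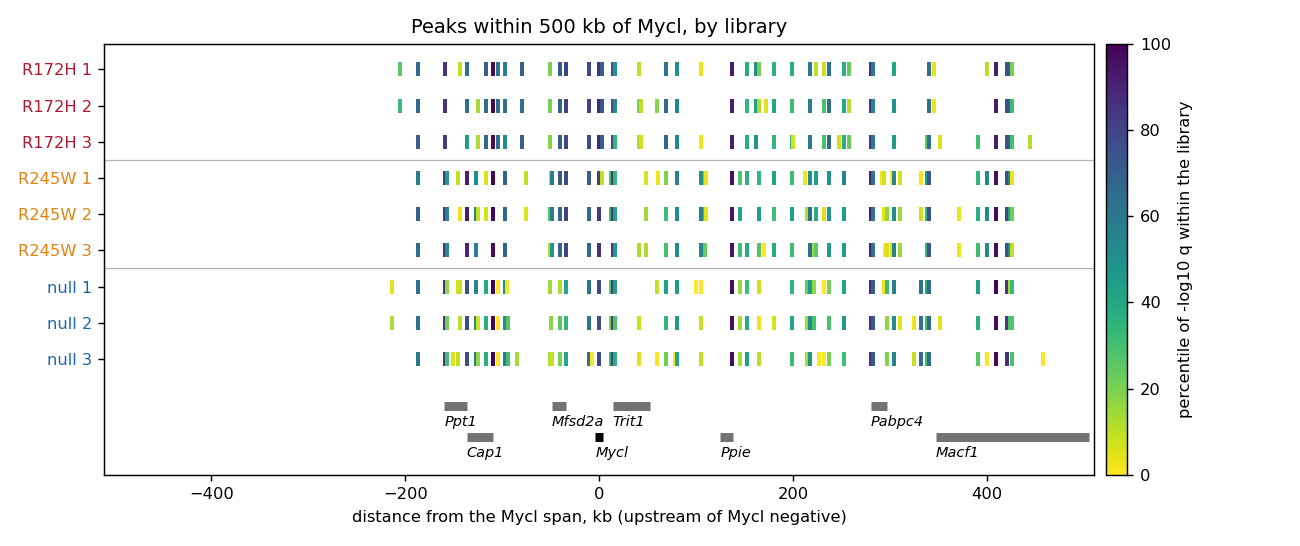
Each tick is a merged region with a peak in that library, placed by its distance in kb from the Mycl span and coloured by the percentile of its -log10 q within the library. Negative distances are upstream of Mycl, and bars mark Mycl (widened) and neighbouring genes. The libraries share most strong peaks at the ends of neighbouring genes, and the first 286.3 kb hold no peak.

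The Mycl gene end (region 122995250 to 122997425, which covers the printed promoter) was open in all 9 libraries. Its percentiles were 87.1, 89.5 and 89.5 in R172H, 81.9, 83.6 and 86.3 in R245W, and 78.2, 76.5 and 78.9 in null libraries, without overlap. The means were 88.7 ± 1.399, 83.9 ± 2.21 and 77.9 ± 1.24 in R172H, R245W and null (SD, n = 3 each; exact permutation test, one-sided, adjusted p = 0.00643). The gap between R245W and null depended on list length. With lists of equal length the means were 87.3, 80.9 and 77.7 in R172H, R245W and null, and R172H, in place of null, stood farthest from the others (exact permutation adjusted p = 0.0107). R172H also stood farthest without R245W replicate 3 (exact permutation adjusted p = 0.0161). Pile-ups were 262, 310 and 299 in R172H, 229, 267 and 276 in R245W, and 213, 221 and 230 in null libraries. After scaling, R172H minus null was 0.66 log2 and R245W minus null 0.09. Of open protein-coding gene ends, 43.7% to 50.9% were weaker than Mycl in R172H, 35.5% to 43.8% in R245W and 30.2% to 33.6% in null libraries.

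R172H had peaks on both sides of the gene that the other lines lacked or had only weakly. A region 2.8 kb beyond the far end of Mycl (123004776 to 123005873) stood at 68.8, 71.9 and 70.3 in R172H, was called in R245W replicate 1 alone of its line at 9.36, and in no null library. Another, 79.4 kb upstream (122915720 to 122916705), was called in R172H alone, at 70.2, 64.1 and 69.4. A region 104.1 kb upstream (122891036 to 122891908) had percentiles of 60.4, 62.3 and 63.5 in R172H, none in R245W, and in null libraries ranked at the bottom of the lists, at 0.00307, 0.196 and 0.201. Only 3 of the 90 Mycl regions (3.33%, against 9.83% of all merged regions) were called in R172H alone.

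Several of the peaks missing from R172H lay within neighbouring genes. Inside Cap1, which encodes an actin-binding protein, a region 127.2 kb upstream of Mycl (122867999 to 122868781) stood at 50.9, 53.6 and 56.3 in R245W and 53.9, 51.6 and 59.5 in null libraries. Inside Ppt1, a lysosomal thioesterase gene, a region 157.2 kb upstream (122838149 to 122838713) stood at 44.8, 54.6 and 51.3 in R245W and 16.5, 20.8 and 29.6 in null libraries. Inside Bmp8a, a bone morphogenetic protein gene, a region 332.0 kb downstream (123333964 to 123334992) stood at 1.91 and 7.66 in R245W replicates 1 and 2 and was stronger in null libraries, at 61.9, 62.0 and 64.5.

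By pairs, R172H over null gave 4 regions in R172H alone (4.44%, against 14.5%) and 7 in null alone (7.78%, against 10.3%). R172H over R245W gave 4 in R172H alone (4.44%, against 11.5%) and 7 in R245W alone (7.78%, against 13.8%). R245W over null gave 3 in R245W alone (3.33%, against 10.0%) and 1 in null alone (1.11%, against 4.03%). These small counts moved with single libraries. Without R172H replicate 3 the R172H-alone counts became 7 over null and 7 over R245W. Without R245W replicate 3 the R245W-alone counts became 11 over R172H and 5 over null, and the last was also 5 without null replicate 2 or null replicate 3. The null-alone count over R245W became 2 to 3 without R245W replicate 2 or any 1 null library.

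The strongest shared regions of the Mycl window were at gene ends and ranked high in every list. The end of Cap1 (122884965 to 122886968) stood at 97.9 to 98.5 in R172H, 98.4 to 98.8 in R245W and 98.5 to 99.4 in null libraries. The end of D830031N03Rik (123411179 to 123412862), in a region that also overlaps Macf1, a cytoskeletal linker gene, stood at 92.4 to 93.2 in R172H, 96.6 to 97.5 in R245W and 97.1 to 99.0 in null libraries. The end of Ppie, a cyclophilin gene, was at 92.0 to 92.8 in R172H, 94.8 to 95.9 in R245W and 96.1 to 97.0 in null libraries. Next to Mycl upstream, Mfsd2a, which encodes a transporter of lysophospholipids, set the null line apart. At its end nearer to Mycl (122960098 to 122961902) the pile-ups were 174, 194 and 170 in R172H, 186, 217 and 201 in R245W, and 50, 50 and 53 in null libraries. The scaled differences were 2.08 log2 for R172H minus null and 1.86 for R245W minus null. A region inside Mfsd2a differed likewise, by 2.21 and 2.09 log2. Mfsd2a was singled out after its values were seen.

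Over the 25 shared Mycl regions the median scaled pile-up was -0.35 ± 0.12 log2 in R172H, -0.18 ± 0.05 in R245W and -0.66 ± 0.12 in null (SD, n = 3 each; exact permutation test, one-sided, adjusted p = 0.00643). Region by region there was no common direction: 13 of 25 were higher and 12 lower in R172H than in null, with a median difference of 0.01, and 11 were higher and 14 lower in R245W than in null, with a median difference of -0.10. For R245W over null the medians of levels and of differences thus differed in sign. The chromosome 4 medians were -0.22, 0.11 and 0.25 in R172H, R245W and null. Within 1000 kb the window medians were -0.08, 0.05 and 0.17, with null the highest, and within 250 kb the exact permutation adjusted p was 0.0643. Scaled by the chromosome's own median, the window stood at -0.13, -0.29 and -0.91 in R172H, R245W and null, which turned the order of R172H and R245W and left null the lowest (exact permutation adjusted p = 0.0129). The copy number of the locus itself was not tested.

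**Figure D5:**
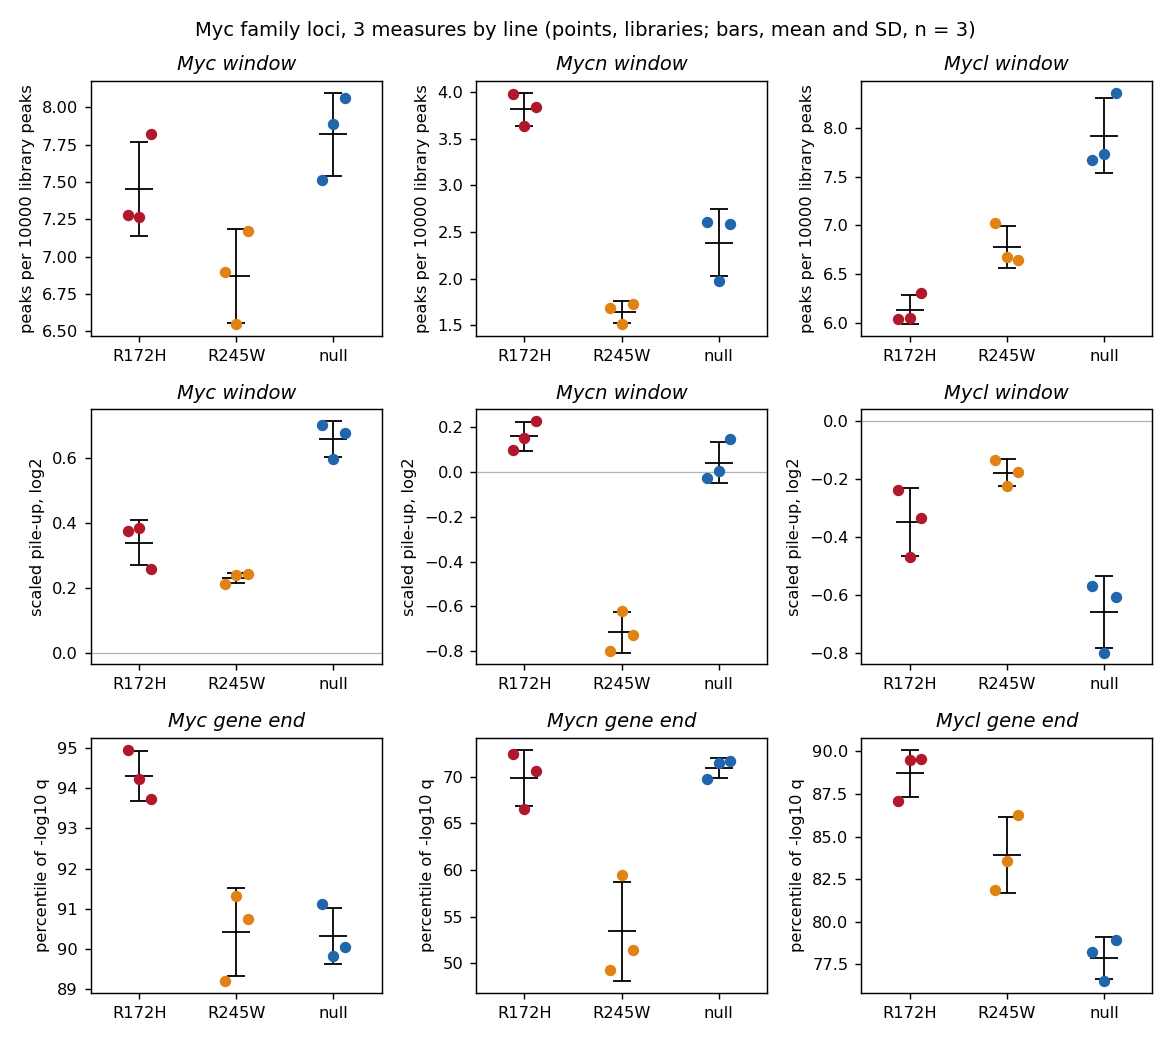
Rows show the peaks in each window per 10000 library peaks, the median scaled summit pile-up (log2) at regions called in all 9 libraries, and the percentile of -log10 q of the strongest peak at a gene end. Columns show Myc, Mycn and Mycl, points are libraries, and bars are the mean and SD (n = 3). Vertical axes differ between panels and do not start at 0. R172H is highest for Mycn peaks (3.82 per 10000) and for the Myc and Mycl gene ends (94.3 and 88.7).

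Set side by side, the 3 gene ends kept 1 order in every library, Myc above Mycl above Mycn. Mean percentiles were 94.3, 88.7 and 69.9 in R172H, 90.4, 83.9 and 53.4 in R245W, and 90.3, 77.9 and 71.0 in null libraries, for Myc, Mycl and Mycn. In the R245W line the ranges of Myc and Mycl were apart at 89.2 to 91.3 and 81.9 to 86.3, and in the null line those of Mycl and Mycn at 76.5 to 78.9 and 69.8 to 71.7. Percentiles rank peaks within a list and are not absolute levels.

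Likeness was measured as the mean absolute difference of the gene-end percentile over the 9 libraries, among protein-coding genes outside the member's window. Closest to Myc were Alg10b (0.723 points), Kremen1 (0.729) and Mtmr9 (0.740), and 4768 genes lay within 5 points. Mycl was closest to Rbm45 (0.811), Tiprl (0.972) and Gpr161 (0.972), with 1907 genes within 5 points, and Tiprl and Gpr161 had the same values in all libraries. For Mycn, whose R245W values were low, Zfp532 (3.34), Aarsd1 (3.68) and Trim7 (3.80) came closest, and 16 genes lay within 5 points.

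The wider Myc network was open at most gene ends in all lines. Of 42 listed genes, 36 (85.7%) were open at an end in every library, against 55.0% of 21883 protein-coding genes. By role these were 8 of 10 partners and antagonists such as Max, 8 of 9 regulators of the Myc protein such as Fbxw7, 7 of 9 factors acting on Myc transcription and 13 of 14 known targets. In R172H over null, 0 network ends were open in R172H alone (3.19% of all genes) and 1 in null alone (1.27% of all genes). In R245W over null, 1 was open in R245W alone (3.3% of all genes) and 0 in null alone (0.544%). In R172H over R245W, 1 was open in R172H alone (1.61%) and 2 in R245W alone (2.57%). Counts of 0 to 2 genes are too few to read against these shares.

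These 5 calls fell on 3 genes. Runx3, a Runt-family transcription factor, was open in R245W, at percentiles of 93.9, 93.4 and 92.7, and in null, at 99.2, 98.8 and 98.4, and in no R172H library. Mlxipl, which encodes the glucose-responsive Mlx partner ChREBP, had weak peaks at 26.3, 13.8 and 27.4 in R172H, none in R245W, and 9.35 and 3.85 in null replicates 2 and 3. Ldha, a glycolytic target of Myc, was called weakly in R245W alone, at 22.3, 2.91 and 4.34, and lost this call at a -log10 q of 5 or more and with equal list lengths. Skp2, a ubiquitin ligase component that acts on Myc, had no open end in any library.

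Values at the window edges show what the 500 kb limit took in. At Myc, the last region inside the lower edge was called in 9 libraries (percentiles 64.2 to 74.4, 451.9 kb from the gene span) and the first outside in 3 (17.7 to 29.1, 521.8 kb). At the upper edge the last inside was called in 4 libraries (18.4 to 41.0, 493.0 kb), and the first outside in 9 (71.4 to 86.2, 510.1 kb). For Mycn the regions just outside lay 514.7 kb downstream, called in 9 libraries at 30.8 to 77.1, and 506.8 kb upstream, called in 4 at 17.7 to 50.6. The corresponding regions just inside were called in 6 libraries at 0.674 to 45.2 and in 8 at 15.6 to 69.8. For Mycl the first region outside on the downstream side lay 524.8 kb off and was called in 3 libraries at 38.5 to 49.9, and the last inside in 1 library at 0.449. On the upstream side the last region inside lay only 213.4 kb off, called in 2 libraries at 3.95 and 12.5, and the first outside lay 1754 kb off, called in 9 libraries at 24.2 to 52.3.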

How the data were processed

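ATAC-seq libraries of 3 mouse osteosarcoma lines, 3 per line, were analysed from the deposited peak lists, 1 per library, so replicates were not pooled. Per the submitters' processing notes, MACS2 2.1.0, Bowtie 1.1.2, Trimmomatic 0.33, bcl2fastq 2.17 and deepTools were among the tools, and the build was GRCm38. Not given in the sources used here: the version of deepTools, all settings, read filters and whether reads were shifted for Tn5, which moves peak borders by some bases.

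Per peak, the deposited columns are a score, the ratio (fold) of the summit to local background, and a p-value and q-value, both as -log10. These are the authors' values and serve here for ranks and filters inside a list. Lists began at a -log10 q of 1.30 to 1.42.

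The members, gene lists and tests were chosen with earlier results of these data known. Windows were the RefSeq gene spans (GRCm38.p6) plus 500 kb on each side. The percentile of a peak is its average rank of -log10 q within its list. A gene end was open if a peak lay 1000 bp or less from it, and a strand was known only where the promoter table gives it, so exons, introns and UTRs are not stated. The whole pile-up was solved from fold and p by the Poisson tail, and the p computed back matched the listed one for 100% of peaks in each list. On simulated data 4987 of 4987 pile-ups were recovered, and the region rule recovered 200 of 200 implanted regions. The implanted regions were present in every library of a line and in no other library. Their recovery was thus fixed by the design, and it checks the calculation only and not partly called regions. Intervals for counting error are not given because read depth is unknown.

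For each gene, 3 measures were tested: peaks per 10000 library peaks, scaled pile-up and gene-end percentile. The statistic was the between-line sum of squares over all 280 partitions of the libraries (smallest p 0.00357), with Benjamini-Hochberg adjustment over the 9 tests and a threshold of 0.05. Regions and gene ends were counted without a test per region. Named regions were the gene-end region, the 3 strongest shared regions, and the strongest regions called in one line and not another, ranked by the lowest percentile. Others were named as chosen after seeing values. Lists held 42 genes of the Myc network and markers of 4 cell types. Libraries of a line shared 0.192% to 0.267% of intervals exactly, so none was a duplicate. Other settings tried were lists of equal length, a -log10 q of at least 5, windows of 250 and 1000 kb, gene end windows of 500 and 2500 bp, scaling by chromosome, summit windows of 250 bp either side, 50% overlap, 2 of 3 libraries, each library left out, and the replicate block. The software was matplotlib 3.10.9, scipy 1.17.1, pandas 2.3.3 and numpy 2.4.6 under Python 3.11.15.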

Additional observations from a re-analysis of the deposited data

How the results depend on the processing

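Of 129 alternatives to the 9 tests, 112 kept the call and the line that stood apart. Another line stood apart, with the call kept, for Myc peaks per 10000 at a -log10 q of 5 or more (null, adjusted p = 0.0161, exact permutation test, as for all p here) and within 250 kb (null, 0.0321). The same held for the Mycl gene end with equal list lengths (R172H, 0.0107) and without R245W replicate 3 (R172H, 0.0161), Myc peaks and Myc pile-up without R172H replicate 3 (null, 0.0230, and R245W, 0.0107), Myc pile-up within 250 kb (R245W, 0.00804), Mycn peaks within 1000 kb (R245W, 0.00643) and Mycl pile-up within 1000 kb (R172H, 0.00643). The call was lost for Mycl pile-up within 250 kb (0.0643) and Myc pile-up within 1000 kb (0.0571). With each library left out, adjusted p ran from 0.0214 to 0.0714 for Myc peaks, 0.00643 to 0.0362 for Myc pile-up and 0.00643 to 0.0214 for the Mycl gene end. The cause was not tested.

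Replicate numbers are shared across lines but did not pair the libraries: the correlations of same-numbered deviations ran from -0.0158 to 0.0219 in 9 pairs. With the replicate block, which allows no p under 0.0278, the adjusted p was 0.111 for the Myc gene end, 0.0938 for the Mycn gene end and 0.0357 for the other 7 tests.

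Over the 3 windows, 63 of 66 region counts stayed within 1.5 times. R245W-alone regions over null (11) became 6 with equal list lengths and ran from 11 to 18 with a library left out, and null-alone regions (11) became 17 with 2 of 3 libraries. For network gene ends, 58 of 66 counts stayed. In null alone over R172H the count of 1 became 0 with gene ends of 2500 bp. In R245W alone over null it became 0 at a -log10 q of 5 or more and 0 with equal lengths. In null alone over R245W the 0 became 1 with 2 of 3 libraries and ran from 0 to 1 with a library left out. In R245W alone over R172H the 2 became 1 at a -log10 q of 5 or more, 1 with equal lengths and 1 with 2500 bp. Read depth is unknown, and a missing call is a value under the list's threshold, not closed chromatin.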

Other observations

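Some network genes that were open in all or nearly all libraries differed in rank between lines. They are given as values, chosen after these were seen. The end of Tert, the telomerase catalytic subunit gene and a known target of Myc, stood at percentiles of 79.2, 78.6 and 79.8 in R172H, 55.3, 58.0 and 52.0 in R245W, and 9.04, 6.37 and 11.9 in null libraries. No lines overlapped for Tert. Ccnd2, a cyclin D gene, stood at 72.4, 75.8 and 73.5 in R172H, 43.0, 51.0 and 36.5 in R245W, and 40.2, 70.3 and 27.9 in null libraries, where null replicate 2 lay near the R172H values. Mga, which encodes a Max partner that represses Myc targets, was weak or not called in R172H, with 17.8 and 5.34 in replicates 2 and 3. It reached 76.2, 81.1 and 77.7 in R245W and 81.4, 80.9 and 79.8 in null libraries. Runx1 was also lowest in R172H, with 6.11 and 15.3 in R172H replicates 1 and 3, 54.7, 65.1 and 65.0 in R245W, and 52.5, 55.2 and 58.2 in null libraries.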
